A study of Mus musculus with 16 samples.

Results

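The genes described here are 9 that red cells and their precursors use: the embryonic globin genes Hbb-y, Hbb-bh1 and Hba-x, the transcription factor genes Klf1 and Gata1, the heme enzyme gene Alas2, the membrane protein genes Slc4a1 and Ermap, and the erythropoietin receptor gene Epor. They were followed across mouse kidney samples taken at E11.5, about the time the kidney starts to branch. Every probe set (a group of short probes that reports 1 transcript) was taken whose only gene symbol in the platform annotation was 1 of these names. This gave 15 probe sets for the 9 genes, of 45037 probe sets and 18193 named genes on the array. Each gene is represented by its probe set with the highest mean log2 signal over the 16 arrays, and the others were checked against it.

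At this age the ureteric bud (UB), an epithelial outgrowth, has entered the metanephric mesenchyme (MM), the tissue that forms the nephrons. There were 4 groups with 1 array per sample. The first held 4 wild-type UB samples, replicates 1 to 4, each pooled from 3 to 9 buds. The second held 5 MM samples of HoxA11, D11 double null embryos, replicates 1 to 5, cut with a laser from 7 µm sections of whole urogenital ridges; the sources used here do not say how many mesenchymes went into each. The third held 4 wild-type MM samples, replicates 1 to 4, cut in the same way from 7 µm sections of kidney rudiments, with 3 to 4 mesenchymes in each. The last held 3 wild-type MM samples, replicates 5 to 7, 1 mesenchyme each. The bud and the last group were separated by hand after collagenase at 0.5 mg/ml and 37 °C. No transgene or Cre is named in the labels, and the sources used here give no strain, litter or scan date. The series text states that replicates are separate embryos. The p-values below measure the spread between these samples.

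The mouse embryo makes its first red cells in the yolk sac. These primitive erythroid cells circulate with their nucleus, carry hemoglobin built from embryonic globins, and reach every organ that has vessels, including the early kidney. The alpha-like chain of embryonic hemoglobin is encoded by Hba-x and the beta-like chains by Hbb-y and Hbb-bh1; liver-derived red cells later replace them with adult chains. Gata1 binds GATA letters and Klf1 binds CACCC letters in the control regions of many red cell genes. Alas2 carries out the erythroid first step of heme synthesis. Slc4a1 is the band 3 anion exchanger of the red cell membrane, Ermap is an immunoglobulin-family protein of the erythroid surface, and Epor carries the erythropoietin signal that keeps progenitors alive.

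The stretches just upstream of the transcription start are shown for 5 of the genes, because Klf1 and Gata1, 2 of the 9, encode factors that read the letters marked in them. RefSeq promoters were found for 7 of the 9 genes, all but Hbb-bh1 and Slc4a1. Each line holds the 180 bases before the start on the gene's own strand, 5′ to 3′, build GRCm38.p6. Capitals mark GATA letters (AGATAA or AGATAG or TGATAA or TGATAG, on either strand) and CACCC letters (CCNCNCCC on either strand, matches may overlap). The positions are chr7:103853208-103853387 on the minus strand for Hbb-y, chr11:32276420-32276599 on the plus strand for Hba-x, chr8:84901802-84901981 on the plus strand for Klf1, chrX:150547237-150547416 on the plus strand for Alas2, and chr4:119189996-119190175 on the minus strand for Ermap.
Hbb-y: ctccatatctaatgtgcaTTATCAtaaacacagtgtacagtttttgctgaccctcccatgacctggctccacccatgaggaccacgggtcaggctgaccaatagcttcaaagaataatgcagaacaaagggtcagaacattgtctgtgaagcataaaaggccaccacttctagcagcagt
Hba-x: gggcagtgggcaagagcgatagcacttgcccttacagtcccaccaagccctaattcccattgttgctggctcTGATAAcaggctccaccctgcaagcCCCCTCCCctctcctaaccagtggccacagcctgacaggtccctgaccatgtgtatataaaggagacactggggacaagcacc
Klf1: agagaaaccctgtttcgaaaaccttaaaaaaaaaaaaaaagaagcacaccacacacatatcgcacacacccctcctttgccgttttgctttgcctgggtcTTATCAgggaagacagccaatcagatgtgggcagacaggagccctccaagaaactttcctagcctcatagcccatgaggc
Alas2: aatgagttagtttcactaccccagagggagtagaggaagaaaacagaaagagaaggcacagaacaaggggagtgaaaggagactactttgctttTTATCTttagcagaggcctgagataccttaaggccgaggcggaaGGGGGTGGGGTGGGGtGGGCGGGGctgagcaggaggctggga
Ermap: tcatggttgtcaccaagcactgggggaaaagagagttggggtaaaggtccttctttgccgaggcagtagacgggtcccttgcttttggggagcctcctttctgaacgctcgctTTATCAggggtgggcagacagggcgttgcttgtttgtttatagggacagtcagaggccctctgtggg
GATA letters stood within 250 bases before the start of 6 of the 7 genes, all but Gata1, and 26.5% of 32851 mouse promoters in the same table hold them in a window of that length. CACCC letters of the CCNCNCCC form stood there in 4 of the 7 (Hba-x, Gata1, Alas2 and Epor), against 45.9% of all promoters. A plain CACCC outside that form, as in the Hbb-y, Hba-x and Klf1 lines, was neither marked nor counted. A match to the form need not hold a plain CACCC, as in Hba-x. In Hbb-y the GATA match lies 162 to 157 bases before the start, in Hba-x 108 to 103 and also 234 to 229, in Klf1 80 to 75, in Alas2 86 to 81, in Ermap 67 to 62 and in Epor 54 to 49. These matches are descriptions of the letters and say nothing of which factor is bound.

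Array medians ran from 112.7 to 209.2 signal units, and the 2-round amplification of RNA left 3′ to 5′ signal ratios of Gapdh from 6.53 to 12.2 in UB, 18.4 to 26.3 in null captures, 14.3 to 22.9 in wild-type captures and 22.1 to 69.3 in hand-dissected MM. Those of Actb were 10.9 to 16.3 in UB, 17.5 to 27.6 in null captures, 14.8 to 20.9 in wild-type captures and 11.1 to 17.9 in hand-dissected MM. The null arrays were the least alike, with a median correlation to the others of their group from 0.896 to 0.933, against at least 0.954 in every other group. Hoxa11 checks the genotype labels: its signal was 197, 91.8, 137, 95.7 and 98.8 on the 5 null arrays, against 814, 656, 839.6 and 525.5 on the 4 wild-type captures (limma adjusted p = 0.0114). Hoxd11 averaged 341 ± 121 in null and 435 ± 115 in wild-type captures (SD, n = 5 and 4; limma adjusted p = 0.635), and the sources used here do not say whether its probes lie inside the targeted part. The hand-separated tissues fitted their names: of 14 tested ureteric bud genes 13 were higher in UB than in MM, among them Calb1 with a mean of 61593 against 155, and of 12 tested mesenchyme genes 11 were lower, among them Foxd1 with 93 against 12067.

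In the ureteric bud, 6 of the 9 erythroid genes were lower than in the mesenchyme dissected by hand from rudiments of the same age. All 9 genes had a lower signal on every UB array than on any hand-dissected MM array, where 18.8% of the 12435 genes tested were apart in that direction. Hbb-bh1, Hba-x, Gata1, Alas2, Slc4a1 and Ermap fell in UB at an adjusted p under 0.05 (limma with Benjamini-Hochberg adjustment over all tested probe sets), where 14.6% of all genes were called lower and 13.9% higher. Hbb-bh1 was 8.91-fold, Hba-x 6.79-fold and Ermap 6.07-fold lower by group means. Ermap and Alas2 were above the array's median on 2 of 4 UB arrays, and Hba-x and Slc4a1 on 3 of 4. The size of their falls is therefore limited by background in UB. The median log2 difference was -2.04 over the 9 genes, with a range from -3.59 to -0.68, and 0.006 over all genes tested.

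**Figure D1:**
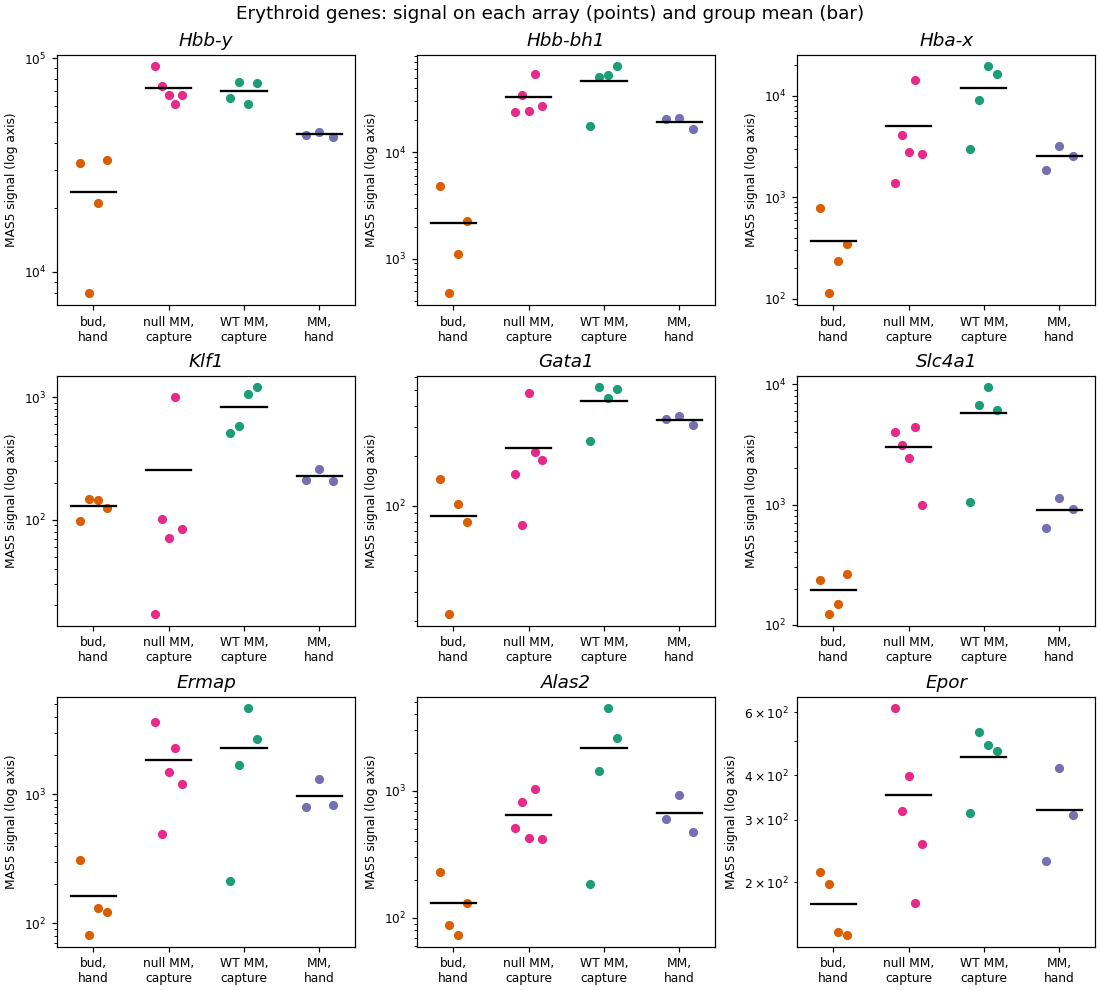
MAS5 signal (log axis) of the representative probe set of each of the 9 genes on every array (points), with the group mean (bar), for UB, null capture, wild-type capture and hand-dissected MM. All UB points lie under all hand-dissected MM points in each panel, and the captured groups overlap each other in each panel.

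Among the globin genes, values are given here and below in order of replicate number. Hbb-bh1 had signals of 4833, 471, 1115 and 2243 in UB, against 20433, 21068 and 16342 in hand-dissected MM. The groups did not overlap, and the 3 MM arrays were much closer to each other than the 4 buds were. The log2 difference was -3.59 ± 0.57 (SE) with an adjusted p of 0.000702 (limma). Hba-x, the alpha-like chain, had 788, 113, 236 and 349.8 in UB, against 1877, 3168 and 2529 in MM, and fell by 2.89 ± 0.46 on the log2 scale (limma adjusted p = 0.000702). UB replicate 1 was the highest bud and replicate 2 the lowest for both of these genes.

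Hbb-y, the epsilon-like beta chain, had 32328, 7919.9, 21047 and 33398 in UB, against 43579, 45293 and 42949 in MM. Its groups were apart, but UB replicate 2 stood well below the other buds, and the difference of -1.09 ± 0.39 missed the threshold (limma adjusted p = 0.0639). It passed without UB replicate 1 (limma adjusted p = 0.0203), without UB replicate 2 (limma adjusted p = 0.0286, at a difference of -0.63) and without UB replicate 4 (limma adjusted p = 0.0406). The probe set 1450621_a_at of the same gene gave -3.01 ± 0.59 (limma adjusted p = 0.00304) on the same arrays.

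Of the transcription factor genes, Gata1 fell in UB and Klf1 did not pass. Gata1 had signals of 144, 21.9, 102 and 79.7 in UB, against 333, 349.6 and 307 in MM, a difference of -1.68 ± 0.37 (limma adjusted p = 0.00584). It lay above the array's median on 1 of 4 UB arrays and on all 3 MM arrays. Klf1 had 98.1, 149, 145 and 124 in UB, against 212, 260.4 and 208 in MM, and its difference of -0.68 ± 0.26 gave an adjusted p of 0.0828 (limma). Of the 4 UB arrays 2 were above their median, and all 3 MM arrays were.

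The heme enzyme and both membrane protein genes fell in UB. Alas2 had 232, 88.8, 73.0 and 131 in UB, against 603, 924 and 473 in MM, a difference of -2.11 ± 0.35 (limma adjusted p = 0.000872). Slc4a1 had 236, 122, 149 and 266.5 in UB, against 644, 1128 and 912.5 in MM, a difference of -2.04 ± 0.30 (limma adjusted p = 0.000364). Ermap had 311.5, 80.3, 130.0 and 122 in UB, against 792, 1317 and 824 in MM, a difference of -2.45 ± 0.36 (limma adjusted p = 0.000357). For each of the 3 genes the highest bud stayed under the lowest mesenchyme, and the highest mesenchyme was replicate 6.

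Epor, the receptor gene, had 213, 197.5, 144.5 and 142 in UB, against 229.8, 417.5 and 309 in MM. The 2 groups came close without overlapping, and the difference of -0.74 ± 0.28 missed the threshold (limma adjusted p = 0.0745). It passed without MM replicate 5 (limma adjusted p = 0.0495) and without UB replicate 1 (limma adjusted p = 0.0489). No call among the 6 genes was lost when any single array was left out. With all 16 arrays in 1 fit Alas2 missed the threshold (limma adjusted p = 0.0508) and Hbb-y passed it (limma adjusted p = 0.0303).

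**Figure D2:**
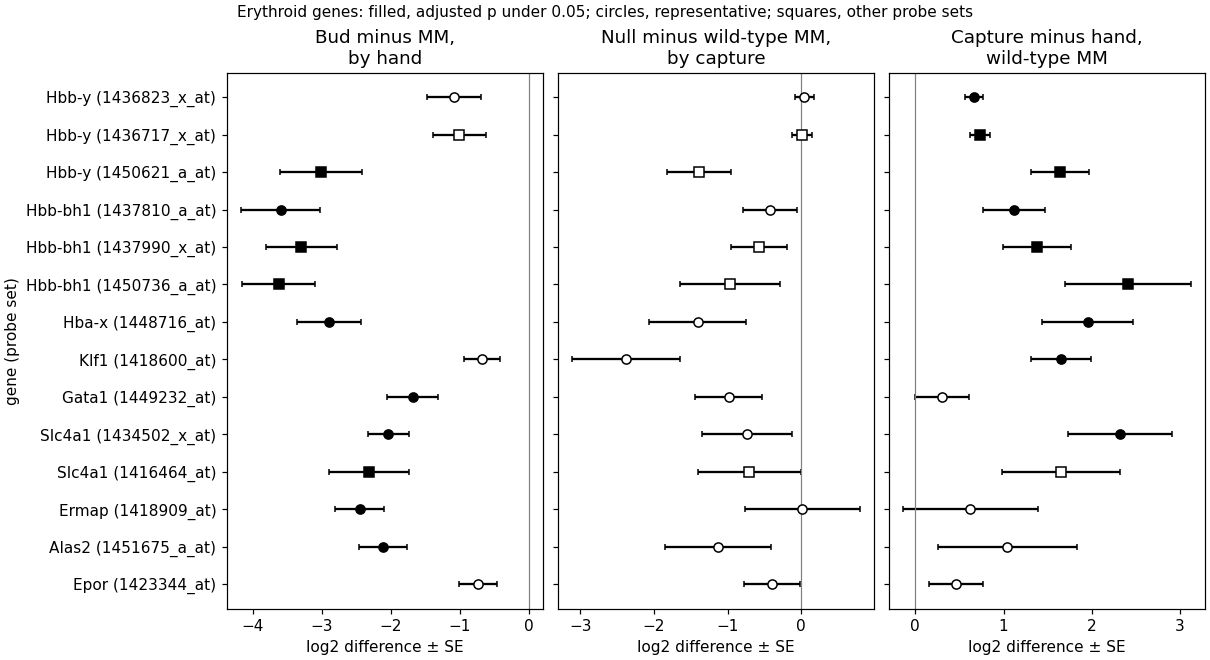
Log2 difference ± SE of 14 probe sets of the 9 genes in the 3 comparisons, each set on its own arrays; filled symbols have an adjusted p under 0.05, circles are representative probe sets and squares other ones. All points lie left of 0 for UB minus MM and right of 0 for capture minus hand, and none is filled for null minus wild-type.

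Other red cell genes did not all follow. Of 16 tested erythroid transcription factor genes, 6 were lower and 3 higher in UB, with a median of -0.59. Hemgn, a nuclear protein of blood progenitors, averaged 46 in UB and 617 in MM (-3.16 ± 0.55, limma adjusted p = 0.00133). Lyl1, a partner factor of early blood cells, averaged 28 in UB and 296 in MM. Lyl1 lay under the array's median on every UB array, so the size of its fall is limited by background. Sox6 (1751 in UB, 296 in MM) and Myb (10494 in UB, 2430 in MM), which are also used outside blood, rose. Of 15 measured red cell membrane genes 8 were tested. Of the 15, 6 (Epb42, Rhag, Kel, Xk, Aqp1 and Icam4) lay under the array's median on every UB array. Of the 8 tested, 4 were lower and 3 higher in UB. Add2, the beta adducin of the membrane skeleton, averaged 239 in UB and 869 in MM. The tetraspanin gene Tspan33 (7335 in UB, 947 in MM), the membrane skeleton gene Dmtn (1258 in UB, 319 in MM) and the glucose transporter gene Slc2a1 (17705 in UB, 4880 in MM) rose. A second probe set of Dmtn had the opposite sign.

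Few genes of heme and iron handling passed the test. Of 10 tested heme synthesis genes, 1 was lower in UB (Fech, the ferrochelatase that inserts iron, with 5099 in UB and 8320 in MM) and none was higher, with a median of -0.03. Of 8 tested iron genes, 2 were lower: Slc40a1, the iron exporter ferroportin (2853 in UB, 16800 in MM), and Slc25a37, the mitochondrial iron importer (1514 in UB, 2750 in MM). Of 8 tested red cell enzyme genes, 3 were higher in UB (Car2, a carbonic anhydrase, Hk1, a hexokinase, and Bpgm, the bisphosphoglycerate mutase) and none was lower. Of 9 tested genes of erythropoietin signalling, 3 were higher (Kitl, Jak2 and Trib3) and 2 lower, among them Socs3; 1 of the 3 other probe sets of Kitl had the opposite sign.

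Markers of vessels and of other blood cells were lower in UB along with the 9 genes. Of 16 tested endothelial genes 14 were lower, among them Kdr, the VEGF receptor (428 in UB, 3440 in MM), Tek, the angiopoietin receptor (341 in UB, 2340 in MM), Sox17 (286 in UB, 2190 in MM) and Ramp2 (1402 in UB, 8140 in MM). Of 8 tested macrophage genes 6 were lower, led by the receptor gene Csf1r (108 in UB, 3280 in MM), and of 7 tested megakaryocyte and platelet genes 5 were lower, led by the chemokine genes Ppbp (149 in UB, 1820 in MM) and Pf4 (309 in UB, 2680 in MM). The summed signal of the 18 measured endothelial genes was 7050 to 13693 in UB and 24780 to 35973 in MM, and that of the 12 measured macrophage genes was 1217 to 1721 in UB and 5363 to 15037 in MM. The summed signal of the 9 erythroid genes was 9163 to 39183 in UB and 64853 to 73926 in MM. Hbb-y, which was not called, made up most of this sum, with 7919.9 of 9163 in UB replicate 2 and 45293 of 73926 in MM replicate 6. The endothelial genes Tie1 and Flt1 and the macrophage genes Tyrobp, Aif1, Mrc1, Cd14 and Lyz2 lay under the array's median on every UB array. In these bulk samples fewer red cells and less RNA per red cell cannot be told apart, and the part of vessels in the difference was not tested. UB samples were pooled from 3 to 9 buds and each hand-dissected MM sample held 1 mesenchyme. Pooling therefore differed together with tissue, and the 2 cannot be told apart.

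**Figure D3:**
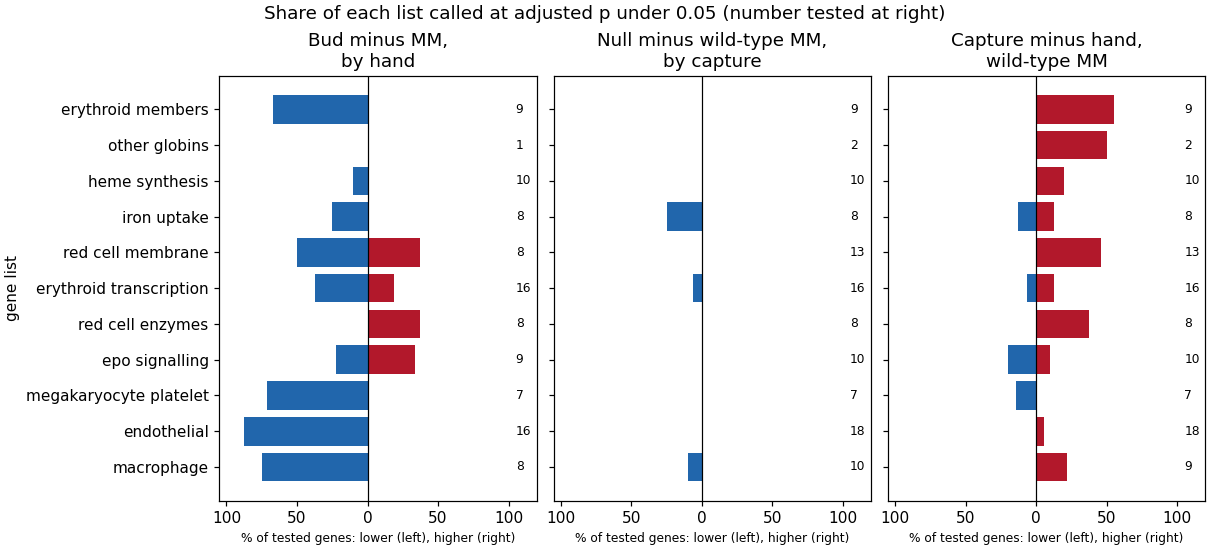
Share of the tested genes of each list that were called lower (left of 0) or higher (right of 0) at an adjusted p under 0.05 in each comparison; the number tested stands at the right. In UB minus MM, 14 of 16 endothelial and 6 of 9 erythroid genes were lower; in null minus wild-type no erythroid gene was called.

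In the laser-captured mesenchyme, none of the 9 genes differed between null and wild-type embryos at an adjusted p under 0.05. Of the 9 differences 7 were below 0, where 58.4% of all 12161 genes tested were below 0. The median was -0.74 over the 9 genes, with a range from -2.38 to 0.04, and -0.10 over all genes. No gene of the 9 had groups that did not overlap, where 5.77% of all genes were apart and lower. In limma at an unadjusted p under 0.05 the count was 1 of 9 (Klf1), where 2319 of the 12161 genes tested (19.1%) were under it. In the main fit, 0.995% of all genes were called lower and 0.748% higher. Klf1 alone of the 9 was called with array weights or with all 16 arrays in 1 fit. Those settings called 1654 and 1793 of 23387 probe sets, against 411 in the main fit.

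Klf1 had the largest difference of the 9. Its signals were 16.9, 101, 71.4, 1008 and 83.6 in null captures, against 506, 579, 1066 and 1207 in wild-type captures. Null replicate 4 lay inside the wild-type range and the other 4 null arrays lay under every wild-type array. Only null replicate 4 exceeded its array's median, and all 4 wild-type arrays did. The log2 difference was -2.38 ± 0.73 with an adjusted p of 0.119 (limma). Without null replicate 4 it was -3.06 with an adjusted p of 0.0145 (limma), and without any other single array the call was not made.

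Of the globin genes, Hba-x had 1385, 4146, 2814.5, 14326 and 2645.5 in null captures, against 2980.5, 9111, 19479 and 16334 in wild-type captures. Null replicate 4 and wild-type replicate 1 each lay among the values of the other group, and the difference was -1.41 ± 0.66 (limma adjusted p = 0.279). Hbb-bh1 had 23768, 34011.5, 24376.5, 53663 and 27081 in null captures, against 17392, 50660.4, 53147 and 63816 in wild-type captures. Here too null replicate 4 was as high as the wild-type arrays and wild-type replicate 1 was the lowest of the 9 captures, with a difference of -0.42 ± 0.36 (limma adjusted p = 0.566). Hbb-y had 91608, 74295, 66874, 61166 and 67405 in null captures, against 64852, 77515, 60783 and 76301.5 in wild-type captures. These 2 ranges lay over each other, and the difference was 0.04 ± 0.13 (limma adjusted p = 0.893), with an opposite sign after quantile and cyclic loess normalization (-0.13 and -0.09) and by the probe set 1450621_a_at (-1.39). The representative Hbb-y probe set read 41.2 to 68.7% of the highest signal of its array on the captures. Whether so bright a reading understates differences was not tested.

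Gata1 had 154, 76.7, 479, 209.7 and 189 in null captures, against 246, 521, 445 and 509.8 in wild-type captures. Null replicate 3 reached the upper wild-type values and the other 4 null arrays lay under every wild-type array; the difference was -0.99 ± 0.45 (limma adjusted p = 0.272). Alas2 had 508, 824, 429, 1041.5 and 418 in null captures, against 183.5, 1432, 4469.8 and 2584.5 in wild-type captures. The null arrays lay between the lowest wild-type array and the other 3, and the difference was -1.13 ± 0.72 (limma adjusted p = 0.43). Without wild-type replicate 1 it was -2.02 (limma adjusted p = 0.0834).

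Slc4a1 had 4052, 3119.7, 2460.1, 4419.9 and 998.5 in null captures, against 1042, 6741, 9465 and 6060.0 in wild-type captures. Null replicate 5 and wild-type replicate 1 were the lowest arrays of their genotypes, and the difference was -0.74 ± 0.61 (limma adjusted p = 0.551). Ermap had 3655, 493, 1499, 2305 and 1206 in null captures, against 211, 1676, 4658 and 2677 in wild-type captures, with a difference of 0.02 ± 0.78 (limma adjusted p = 0.994) that was -0.86 without wild-type replicate 1. Epor had 616.5, 318, 396, 175 and 256 in null captures, against 312, 528, 487 and 467.5 in wild-type captures. Its ranges overlapped and the difference was -0.40 ± 0.38 (limma adjusted p = 0.61).

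Calls between the genotypes in the other gene lists follow, where 0.995% of all genes were called lower and 0.748% higher. Of 16 tested erythroid transcription factor genes 1 was called: Lyl1 fell, with a mean of 308 in null and 1271 in wild-type captures (-1.88 ± 0.31, limma adjusted p = 0.017). Of 8 tested iron genes 2 fell: Aco1, an aconitase that also regulates iron-dependent transcripts, with 3908 in null and 6910 in wild-type captures, and Fth1, the ferritin heavy chain, with 25903 in null and 38900 in wild-type captures. Of the 2 other probe sets of Aco1, 1 had the opposite sign. In limma none of 10 heme synthesis, 13 red cell membrane, 8 red cell enzyme and 10 erythropoietin signalling genes was called. At an unadjusted p under 0.05, where 19.1% of all genes lay, the counts were 2, 1, 5 and 3. They were 3 for the 16 transcription factor genes and 4 for the 8 iron genes.

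Markers of other cells were recorded beside these values. In limma none of 18 tested endothelial genes was called, 7 had an unadjusted p under 0.05 (19.1% of all genes did), and the median was -0.98, against -0.10 over all genes; their summed signal was 15405 to 35554 in null and 20782 to 64895 in wild-type captures. Of 10 tested macrophage genes 1 fell, Tyrobp, an immune receptor adaptor (364 in null, 1621 in wild-type captures, limma adjusted p = 0.047). In limma 7 of the 10 had an unadjusted p under 0.05 (19.1% of all genes did). The median of the 10 was -1.61, against -0.10 over all genes. The summed macrophage signal was 2375 to 18446 in null and 12605 to 25877 in wild-type captures. In limma none of 7 megakaryocyte and platelet genes was called, with 3 at an unadjusted p under 0.05 (19.1% of all genes). Aif1 lay under the array's median on all arrays of both groups. The null and wild-type captures also differed in the piece sectioned and in the stated pooling, and these cannot be told apart from genotype.

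In wild-type mesenchyme taken by laser, 5 of the 9 erythroid genes were higher than in wild-type mesenchyme separated by hand. All 9 differences were above 0, where 55.2% of the 12171 genes tested were above 0. Those that rose were Hbb-y, Hbb-bh1, Hba-x, Klf1 and Slc4a1, where 13.6% of all genes were called higher and 9.88% lower. The groups did not overlap for 2 (Hbb-y and Klf1), where 19.5% of all genes were apart and higher. The median log2 difference was 1.04, with a range from 0.30 to 2.32, and 0.08 over all genes.

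Slc4a1 had the largest difference, 2.32 ± 0.59, with a mean of 5827 ± 3513 in wild-type captures and 895 ± 242 in hand-dissected MM (SD, n = 4 and 3; limma adjusted p = 0.0164). Capture replicate 1 (1042) lay inside the hand-dissected range, and the other 3 captures lay far above it. The call was lost without MM replicate 5 (limma adjusted p = 0.0635), and the probe set 1416464_at gave 1.65 ± 0.67 (limma adjusted p = 0.0915). Klf1 averaged 840 ± 349 in captures and 227 ± 29 in hand-dissected MM, a difference of 1.65 ± 0.34 (limma adjusted p = 0.00593) that passed without any single array.

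For the globin genes, Hba-x averaged 11976 ± 7403 in captures and 2525 ± 646 in hand-dissected MM, a difference of 1.95 ± 0.51 (limma adjusted p = 0.0185). It missed the threshold without MM replicate 5 (limma adjusted p = 0.071) and without MM replicate 7 (limma adjusted p = 0.0527). Hbb-bh1 averaged 46254 ± 20070 in captures and 19281 ± 2565 in hand-dissected MM, a difference of 1.12 ± 0.35 (limma adjusted p = 0.0382) that passed without capture replicate 1 (limma adjusted p = 0.000397) and missed the threshold without any other single array (0.073 to 0.119). It was also missed with median scaling (limma adjusted p = 0.0929), with no filter (limma adjusted p = 0.069) and with robust eBayes (limma adjusted p = 0.0648). Hbb-y averaged 69863 ± 8318 in captures and 43940 ± 1214 in hand-dissected MM, a difference of 0.66 ± 0.10 (limma adjusted p = 0.00163) that passed without any single array.

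The other 4 genes did not pass. Alas2 averaged 2168 ± 1821 in captures and 667 ± 232 in hand-dissected MM (1.04 ± 0.79, limma adjusted p = 0.358), and Ermap averaged 2306 ± 1867 in captures and 978 ± 294 in hand-dissected MM (0.63 ± 0.76, limma adjusted p = 0.581). For both genes capture replicate 1 lay below every hand-dissected array and the other 3 captures lay above. Without that array Alas2 differed by 1.93 (limma adjusted p = 0.00914) and Ermap by 1.5 (limma adjusted p = 0.0177), and 7 of the 9 genes were called. Gata1 averaged 431 ± 127 in captures and 330 ± 22 in hand-dissected MM (0.30 ± 0.31, limma adjusted p = 0.505), and its difference was -0.04 after quantile normalization. Epor averaged 449 ± 94 in captures and 319 ± 94 in hand-dissected MM (0.46 ± 0.30, limma adjusted p = 0.291). The count of 5 was 2 without MM replicate 5 and 3 without MM replicate 7. With all 16 arrays in 1 fit, which share 1 estimate of the spread, it was 1: Slc4a1 passed (limma adjusted p = 0.0193), and the adjusted p was 0.0757 for Hba-x, 0.115 for Klf1, 0.197 for Hbb-bh1 and 0.198 for Hbb-y.

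Among the other lists, 6 of 13 tested red cell membrane genes rose in captures and none fell, with a median of 0.78. Kel, a blood group metalloprotease, averaged 1477 in captures and 210 in hand-dissected MM (2.25 ± 0.64, limma adjusted p = 0.0261). Rhag, the Rh-associated glycoprotein, averaged 274 in captures and 43.9 in hand-dissected MM. Tmod1, a cap of membrane skeleton actin, averaged 967 in captures and 323 in hand-dissected MM. Of the 15 measured genes of this list, 5 (Sptb, Epb42, Rhag, Xk and Aqp1) lay under the array's median on every hand-dissected MM array. Rhag was therefore tested through the captures alone, and the size of its rise is limited by background. Tspan33 also rose, with 2641 in captures and 947 in hand-dissected MM. Of 16 transcription factor genes 2 rose (Lyl1 and Sox6) and 1 fell (E2f2), and of 8 red cell enzyme genes 3 rose (Car2, Blvrb and Glrx5).

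Of the other globin genes, 3 of 10 listed had a probe set of their own and 2 were tested here; 1 rose, the adult alpha globin gene Hba-a2, with 430 in captures and 104 in hand-dissected MM (1.73 ± 0.34, limma adjusted p = 0.00512). Hba-a2 is nearly identical to its neighbouring copy, so the probe set may read both. It lay under the array's median on every hand-dissected MM array. It was therefore tested through the captures alone, and the size of its rise is limited by background. Of 10 heme synthesis genes 2 rose (Ppox and Alad); the other tested probe set of Alad was called with the opposite sign. Of 8 iron genes Fth1 rose and Slc11a2 fell; the other tested probe set of Fth1 was called with the opposite sign, and 2 of the 3 others of Slc11a2 had the opposite sign and were not called. Of 10 erythropoietin signalling genes Stat5b rose, and Pim1 and Socs3 fell.

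Markers of other cells were recorded in this comparison too. Of 18 tested endothelial genes 1 rose, Egfl7 (5068 in captures, 1680 in hand-dissected MM), and none fell; of 7 megakaryocyte and platelet genes 1 fell, Ppbp (811 in captures, 1820 in hand-dissected MM). Of 9 tested macrophage genes 2 rose, Tyrobp and Csf1r. Ureteric bud genes were higher in captures in 11 of 14 tested cases: Calb1 averaged 13763 in captures and 155 in hand-dissected MM, and the summed signal of the list was 15423 to 70885 in captures and 8098 to 12057 in hand-dissected MM. Of 11 tested mesenchyme genes 2 fell and 1 rose in captures. Those that fell were Six2 (4712 in captures, 21975 in hand-dissected MM) and Hoxc10 (5881 in captures, 18362 in hand-dissected MM). Cdh11 rose (14128 in captures, 9064 in hand-dissected MM). The part of bud tissue in the difference of the erythroid genes was not tested. The freezing, sectioning and fixing of the captures and the collagenase step of the hand dissection differ together with the method, and they cannot be told apart.

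The 3 probe sets of Hbb-y did not report the same differences. The probe sets 1436823_x_at and 1436717_x_at, whose suffix marks probes that can bind related sequences, gave like differences: -1.09 and -1.01 for UB minus MM, 0.04 and 0.01 for null minus wild-type, and 0.66 and 0.74 for capture minus hand. The probe set 1450621_a_at had 3187, 422, 1157 and 3658 in UB, 17974, 16095, 7501, 36792 and 10086 in null captures, 19391, 48939, 47460.0 and 56402 in wild-type captures and 8937, 16050.1 and 14663 in hand-dissected MM. Its differences were -3.01 for UB minus MM, -1.39 for null minus wild-type (limma adjusted p = 0.123) and 1.64 for capture minus hand (limma adjusted p = 0.00513).

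The log2 gap between 1450621_a_at and 1436823_x_at is given as a description with no test, since this pair was chosen after its differences were seen. It averaged -3.69 ± 0.51 in UB and -1.78 ± 0.44 in hand-dissected MM (SD, n = 4 and 3). In null captures it averaged -2.23 ± 0.92 and in wild-type captures -0.80 ± 0.64 (SD, n = 5 and 4). Which probe set follows the transcript was not tested.

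**Figure D4:**
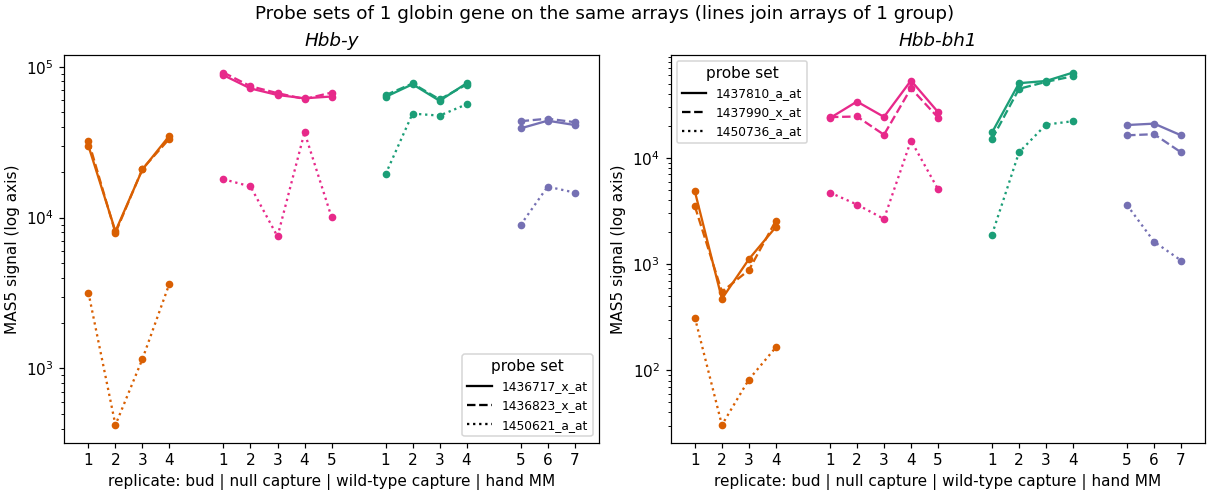
MAS5 signal (log axis) of each probe set of Hbb-y (left) and Hbb-bh1 (right) on every array, by group and replicate; lines join the arrays of a group. For Hbb-y the dotted line (1450621_a_at) spreads from 422 to 56402 while the other lines stay between 7920 and 91608; for Hbb-bh1 the 3 lines keep the same order of groups.

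Hbb-bh1 had 3 probe sets with the same signs in all 3 comparisons. For UB minus MM they gave -3.59, -3.29 and -3.62, all called (limma adjusted p from 0.000347 to 0.000702). For null minus wild-type they gave -0.42, -0.57 and -0.97, none called (limma adjusted p from 0.452 to 0.566), and for capture minus hand 1.12, 1.38 and 2.41, all called (limma adjusted p from 0.0225 to 0.0382). Of the 3 Slc4a1 probe sets, 1434502_x_at and 1416464_at agreed in sign throughout, and 1431743_a_at lay under the array's median on all 16 arrays and was not tested. The Slc4a1 representative 1434502_x_at and the Hbb-bh1 probe set 1437990_x_at also carry the suffix of probes that can bind related sequences.

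By mean log2 signal of the representative probe sets, wild-type captures stood highest for 7 of the 9 genes and UB lowest for 8. For Hba-x, Hbb-bh1, Slc4a1 and Epor the order from the top was wild-type capture, null capture, hand-dissected MM and UB, and for Hbb-y and Ermap the null captures came first and the wild-type captures second. For Alas2 and Gata1 hand-dissected MM stood above null captures. Klf1 had its own order: wild-type capture, hand-dissected MM, UB and, last, null capture. Wild-type and null captures overlapped for all 9 genes, and UB stood apart from the group next above it for 8 genes. Null captures overlapped UB for Gata1, from above, and for Klf1, from below. Groups further up in the order also reached UB in places. Epor in null replicate 4 (175.0) lay under UB replicates 1 and 2 (213.1 and 197.5). In wild-type capture replicate 1, Ermap (211.3) and Alas2 (183.5) lay under UB replicate 1 (311.5 and 231.7).

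**Figure D5:**
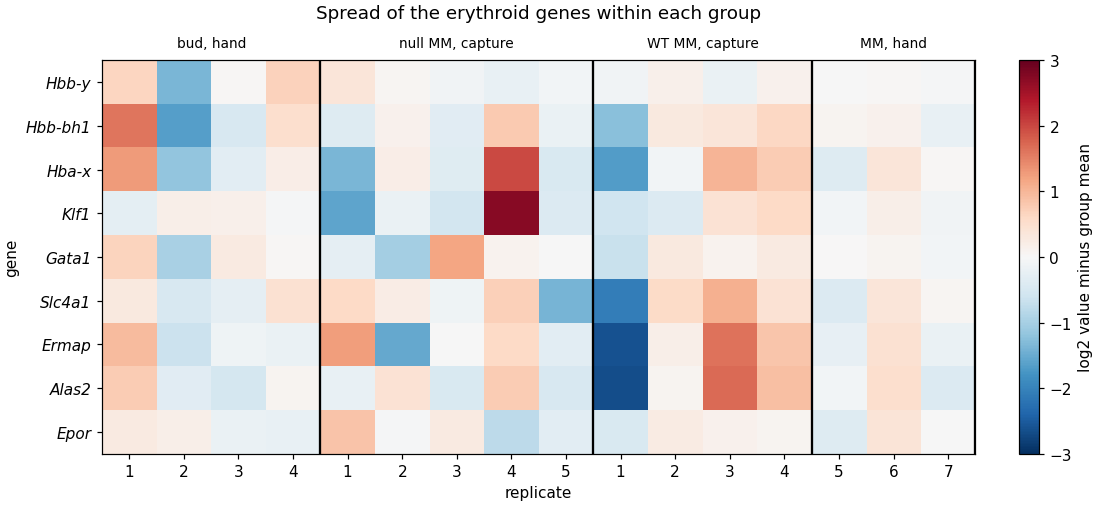
Log2 value of the representative probe set of each of the 9 genes on each array minus its group mean (colour scale, from -3 to 3), for UB, null capture, wild-type capture and hand-dissected MM. Wild-type capture replicate 1 is the lowest of its group in 8 of 9 rows, and null replicate 4 is the highest of its group in 5. Hand-dissected MM replicate 6 is at the top of its group in all 9.

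Within groups, some arrays were high or low for many of the genes at once. Wild-type capture replicate 1 was the lowest of its 4 arrays for 8 of 9 genes, all but Hbb-y, and for Hbb-y too by the probe set 1450621_a_at, with a mean deviation of -1.35 on the log2 scale over the representative probe sets. On the same array the summed endothelial signal was also the lowest of the 4 (20782, against up to 64895), as was the megakaryocyte and platelet sum (3065), while the mesenchyme sum was the highest (113133). The macrophage sum on that array (19733) was not the lowest, since wild-type capture replicate 4 had 12605. Null replicate 4 was the highest of 5 for Hbb-bh1, Hba-x, Klf1, Slc4a1 and Alas2 and the lowest for Hbb-y and Epor; by the Hbb-y probe set 1450621_a_at it was the highest. Its endothelial sum was the second highest of 5 (27903) and its mesenchyme sum the lowest (37060). Its megakaryocyte and platelet sum was the second lowest (1674), and its macrophage sum lay in the middle (5161).

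Hand-dissected MM replicate 6 was the highest of 3 for all 9 genes, with a mean deviation of 0.28. UB replicate 1 was the highest bud for 6 genes and UB replicate 2 the lowest for 6, with mean deviations of 0.69 and -0.70. With group means removed, the 36 pairs of genes had a median Pearson correlation of 0.40 over the 16 arrays, from -0.62 (Klf1 with Epor) to 0.85 (Slc4a1 with Alas2), and 4 pairs were below 0. Hbb-bh1 with Hba-x gave 0.85 and Hba-x with Klf1 0.72. Arrays of a group share their RNA handling, so these values are descriptions.

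The genes most like the mean profile of the 9 were found by Pearson correlation over all named genes. Across the 16 arrays these were Cd40 (0.943), Sin3b (0.929), Hemgn (0.927), Kel (0.923) and Rasa3 (0.918). With group means removed they were Bin1 (0.828), Sox17 (0.816), Atp6v1b2 (0.814), Kif26a (0.812) and Hemgn (0.808). Hemgn stood in both sets, with signals from 2.6 to 3026 over the arrays.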

How the data were processed

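The deposited values are linear intensities, MAS5 signals per the submitters' processing notes, from Affymetrix mouse arrays; the sources used here name no MAS5 version. As read from the values, the authors had scaled every array so that its mean without the outer 2% on each side is 1500.01. Such scaling takes total signal as equal between samples. RNA was amplified in 2 rounds, per the labels' protocols, which weights the 3′ end of transcripts. Identical arrays were looked for and 0 pairs found. The precision is limited by the number of arrays, since signals carry no read depth.

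Of 45101 probe sets, 64 controls were removed; 34945 had 1 symbol, 932 several and 9160 none, and only those with 1 symbol were named, so adult globin probe sets with several symbols are not named. Signals were converted to log2(signal + 36.3), the offset being the 25th percentile of all values, which understates changes of dim genes. A probe set was tested when it stood above its array's median on as many arrays as there are in the smaller group, or more; all 9 genes passed in each comparison. The 3 comparisons were fitted on their own arrays by limma (version 3.58.1, R 4.3.3; lmFit, then trended eBayes); p-values were adjusted by Benjamini-Hochberg over all probe sets tested, and calls were made under 0.05. The fit was tested on simulated data. The wild-type capture arrays and the hand-dissected MM arrays each enter 2 comparisons, so these are not independent of each other. Captured null and wild-type arrays with the same replicate number did not deviate together and were not paired.

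The 9 genes and all gene lists were chosen with earlier results of these data known. Named genes are the 9, up to 4 called genes with the largest difference from each list in each comparison, and the 5 genes most like the mean profile in each of 2 ways. Alternatives were other offsets, a floor, no filter and a stricter filter, quantile, cyclic loess and median scaling, all 16 arrays in 1 fit, array weights, robust eBayes, a replicate block and each array left out. Python 3.11.15, numpy 2.4.6, pandas 2.3.3 and matplotlib 3.10.9 were used for tables and figures.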

Additional observations from a re-analysis of the deposited data

Results flagged for a closer look

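Of 45 groups of 4 or 5 arrays examined over the 9 genes' probe sets, 4 held an array far from the others, and in all 4 it was null capture replicate 4. The check used linear signals, not their logarithms. A chance rate of about 1 such array in 20 groups holds only for normally distributed values. The chance rate for these signals was not tested, so the count of 4 cannot be weighed against it. The probe sets of a gene also share their RNA. Hbb-bh1 read 45327.6 there by probe set 1437990_x_at, against 16561.3 to 24593.5 on the other 4 null arrays, and 14584.6 by probe set 1450736_a_at, against 2666.0 to 5084.1. Hba-x read 14326.2, against 1384.9 to 4146.2 on the others. Klf1 read 1008.3, against 16.9 to 101.2 on the others.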

How the results depend on the processing

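Of 528 values of the 9 genes under the alternatives, 483 kept their direction and their side of the threshold, 18 lost the call, 15 gained it and 12 changed sign. The sign changed where the difference was near 0: for null minus wild-type, Ermap was -0.284 with array weights, -0.04 with the offset at the median, and between -0.857 and 0.558 with single arrays left out; Hbb-y was -0.017 with array weights, -0.094 with cyclic loess, -0.134 with quantile scaling, -1.393 by probe set 1450621_a_at and between -0.047 and 0.099 with single arrays left out; for capture minus hand, Gata1 was -0.041 with quantile scaling. The cause was not tested.

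The count of 6 called genes in UB minus MM stayed between 6 and 8 under every alternative. For null minus wild-type the count was 0, or 1 with all 16 arrays in 1 fit, with array weights and without null replicate 4, and 0 to 1 with single arrays left out. For capture minus hand the count was 5, or 1 with all 16 arrays in 1 fit, 4 with median scaling, no filter or robust eBayes, where Hbb-bh1 missed the threshold, and 2 to 7 with single arrays left out. No paired analysis was possible for UB minus MM or capture minus hand, because their groups share no replicate number. For the captures, correlations of same-numbered arrays were -0.005, 0.034, -0.047 and 0.074, and the fit with the replicate block on replicates 1 to 4 called 0 of the 9 genes and 53 probe sets.

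Over all probe sets, null minus wild-type had 411 called (138 higher, 273 lower); all 16 arrays in 1 fit gave 1793, array weights 1654, median scaling 207 (136 higher, 71 lower), no filter 256, cyclic loess 164 higher and 196 lower, and single arrays left out 60 (without wild-type capture 2) to 1866 (without null 1). Capture minus hand had 5866 (3857 higher, 2009 lower), 2812 with all 16 arrays, and 3391 to 6036 with single arrays left out; median scaling gave 2435 higher and 3204 lower, quantile 2931 and 2572, cyclic loess 3217 and 2506. UB minus MM had 5701 (2952 higher, 2749 lower), 3580 with all 16 arrays, 10132 with array weights, 3951 to 7845 with single arrays left out, and 4015 higher and 2204 lower with median scaling. Median scaling moved the median of null minus wild-type over all probe sets to 0.151 from -0.15; the 9 genes' median was then -0.437. Dim genes such as Klf1 and Gata1, near their array's median, are limited by background, as are Ermap, Alas2, Hba-x and Slc4a1 in UB.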
